A study of Mus musculus with 12 samples.

Results

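Primitive endoderm genes were followed in mouse embryonic stem (ES) cells under treatment with INK128, which blocks the mTOR kinase (mTORi) and holds the cells in a dormant condition like that of diapaused embryos. The genes were 10 established markers of this lineage: the transcription factor genes Gata6, Gata4, Sox17, Sox7 and Foxa2, the receptor gene Pdgfra, the endocytic genes Dab2 and Cubn, and the laminin genes Lama1 and Lamb1. They were picked by symbol from 54446 listed gene identifiers, and each had 1 row in every library. RNA sequencing covered 12 libraries, 2 for each of 6 groups. Wild-type KH cells and DNMT3ABKO cells, from which both de novo DNA methyltransferases, Dnmt3a and Dnmt3b, are deleted, were sampled untreated (0 h) and after 72 and 144 h of mTORi. Each genotype was 1 line, so genotype and line cannot be told apart, and no untreated culture was sampled at 72 or 144 h, so treatment and time in culture cannot be told apart either. The labels put E14 before both line names, whereas the study's methods name the wild-type line KH2 and describe both lines as grown on mitomycin-treated feeder cells, with viable single cells sorted before RNA extraction. The study describes its replicates as biological, but the labels do not name separate cultures, and p-values measure the spread between these libraries.

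Primitive endoderm forms from the inner cell mass, beside the epiblast. FGF4 made by epiblast cells acts through FGF receptors to raise Gata6, which opposes Nanog, and Pdgfra, Sox17, Gata4 and Sox7 follow. Its descendants are the visceral endoderm, which takes up nutrients through cubilin, megalin and the adaptor Dab2, and the parietal endoderm, which lays down a laminin-rich basement membrane. Several of these genes are also active elsewhere: Pdgfra marks fibroblasts, Dab2 is made by fibroblasts and some macrophages, and Foxa2 and Sox17 mark definitive endoderm.

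Values are TPM (transcripts scaled to 1 fixed total), a share of each library's RNA corrected for transcript length, and read depth is unknown. Per library, 15178 to 15811 genes had at least 1 TPM, and the correlation of replicates across genes, which are not independent, was 0.985 for untreated DNMT3ABKO cells and 0.993 to 0.996 elsewhere. The targeted genes matched the labels, with Dnmt3a at 54.7 to 144 TPM in KH and 7.35 to 21.9 TPM in DNMT3ABKO cells, and Dnmt3b at 142 to 258 TPM and 12.7 to 27.5 TPM. The ES cell gene Pou5f1 had group means of 825 to 1119 TPM. Sums over 25 fibroblast and 12 macrophage genes were high at 0 h and fell with time, as given beside Pdgfra and Dab2 below. Fold changes are on the log2(TPM + 1) scale, which understates changes of low genes, each with its standard error (SE). Every adjusted p comes from limma over the 15727 genes that averaged 1 TPM or more, with a gene called under 0.05. In bulk RNA, fewer cells of a type and less RNA per cell cannot be told apart. A rise in TPM is a larger share of a library's RNA and need not be more RNA per cell.

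Of the 10 genes, 5 reached the mean of 1 TPM and were tested (Gata6, Pdgfra, Dab2, Lama1 and Lamb1). The other 5 (Gata4, Sox7, Sox17, Foxa2 and Cubn) stayed below it and were tested only in a fit with no filter on low values. At 72 h of treatment, 3 of the 5 tested genes differed from 0 h in KH cells (1 higher, 2 lower), where 47.8% of all tested genes were called. At 144 h, 4 of 5 were called, 1 higher and 3 lower, against 51.3% of all genes. DNMT3ABKO cells gave the same numbers, 3 of 5 at 72 h and 4 of 5 at 144 h, where 56.0% and 57.6% of all genes were called. The median change of the 5 tested genes at 144 h was -0.23 in KH and -0.40 in DNMT3ABKO cells, beside 0.05 over all genes in both lines. Lama1 was the tested gene called higher in all these comparisons. Of the lineage-defining factors, Gata6 was not called with time in this fit, nor were Gata4 and Sox7 in the fit with no filter. That fit called Sox17 higher at 144 h in both lines, and Foxa2 lower at 72 and 144 h in KH cells.

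**Figure D1:**
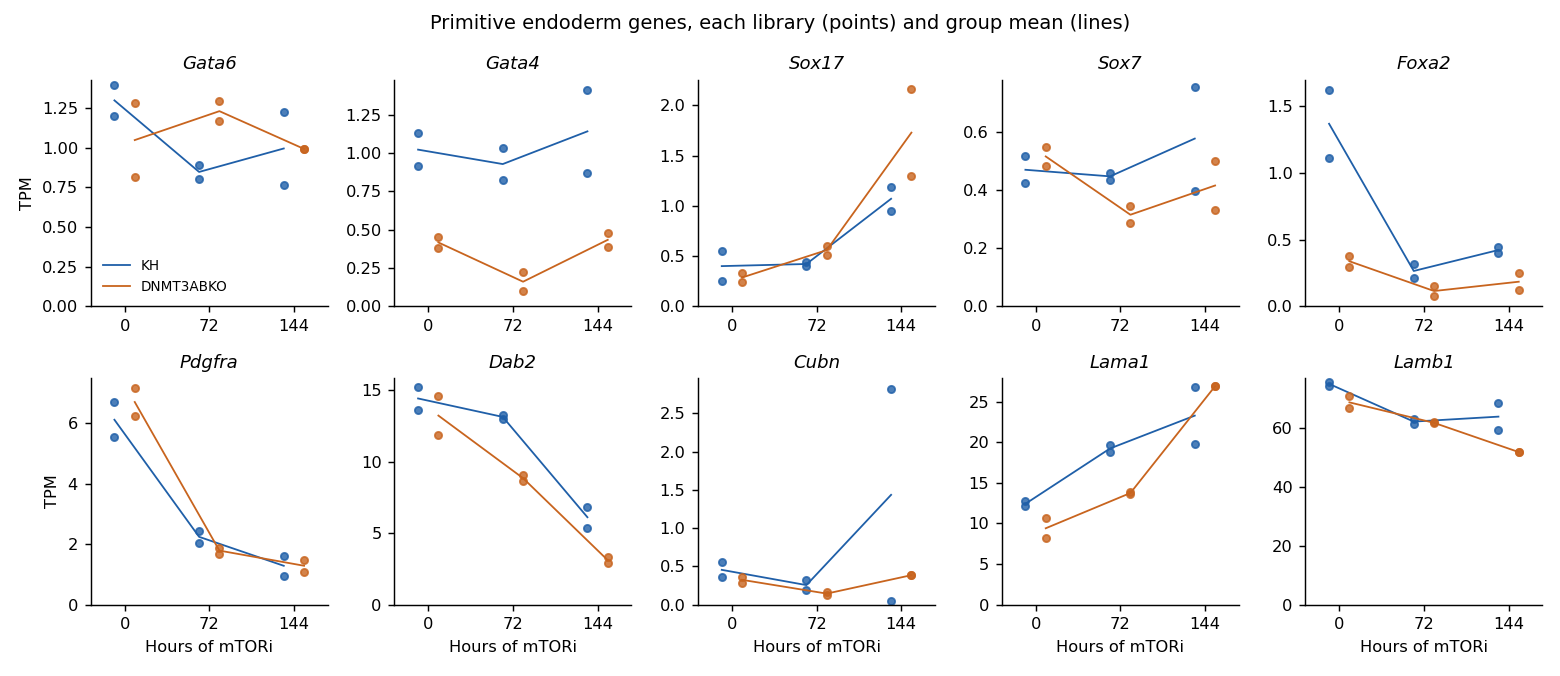
TPM (vertical axes, from 0, scaled per gene) of the 10 primitive endoderm genes at 0, 72 and 144 h of mTORi, with each library as a point and group means joined by lines, for KH (blue) and DNMT3ABKO (orange). Pdgfra and Dab2 fall with time in both lines, Lama1 rises, Lamb1 stays between 51.8 and 75.8 TPM, and the scale of the 5 transcription factor genes does not go above 2.16 TPM.

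RefSeq start regions (GRCm38.p6, the same assembly as mm10) were at hand for 5 of the 10 genes. Those of Pdgfra, Dab2 and Lamb1 are shown because the compared line lacks enzymes that methylate CG dinucleotides. Among the tested genes at 144 h, Pdgfra and Dab2 fell most and Lamb1 changed least of those called. Start regions of Foxa2 and Cubn, which were not in the main test, are not shown. CG is in capitals, and only bases upstream of a RefSeq start and outside annotated exons are given. The Pdgfra stretch lies at chr5:75152001-75152250 (plus strand), the Dab2 stretches at chr15:6299539-6299787 and chr15:6386498-6386597 (plus strand), before 2 alternative starts, and the Lamb1 stretch at chr12:31265043-31265233 (plus strand).
Pdgfra: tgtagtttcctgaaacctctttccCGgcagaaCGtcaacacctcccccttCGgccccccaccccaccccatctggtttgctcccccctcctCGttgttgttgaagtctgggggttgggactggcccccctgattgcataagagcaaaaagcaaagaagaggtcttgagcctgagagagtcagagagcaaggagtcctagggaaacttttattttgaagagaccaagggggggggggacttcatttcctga
Dab2 first start: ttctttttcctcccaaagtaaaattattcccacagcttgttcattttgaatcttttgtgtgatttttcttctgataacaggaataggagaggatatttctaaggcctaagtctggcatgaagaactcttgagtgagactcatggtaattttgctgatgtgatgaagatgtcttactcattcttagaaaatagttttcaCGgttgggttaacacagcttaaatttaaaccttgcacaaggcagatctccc
Dab2 later start: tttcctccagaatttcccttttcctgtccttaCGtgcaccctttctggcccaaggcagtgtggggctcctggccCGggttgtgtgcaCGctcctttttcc
Lamb1: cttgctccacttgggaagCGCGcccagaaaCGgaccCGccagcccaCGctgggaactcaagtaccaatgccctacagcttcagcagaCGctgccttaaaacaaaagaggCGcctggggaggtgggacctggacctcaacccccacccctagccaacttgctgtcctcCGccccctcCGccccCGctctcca

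In the full 250 bases before the start, CG occurred 4 times for Pdgfra, 2 and 17 times for the first and later Dab2 starts and 14 times for Lamb1, and the median of 32851 such windows was 6. GATAA, the core letters bound by GATA factors, searched on both strands, was in 1 of these 4 windows, that of the first Dab2 start, and in 22.6% of all windows. These matches describe the letters only, and DNA methylation was not analysed here.

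Gata6 (ENSMUSG00000005836.9, chromosome 18, plus strand), the earliest factor of the lineage, stayed near the filter throughout. It stood at 1.20 and 1.40 TPM in KH cells at 0 h, at 0.892 and 0.804 at 72 h and at 1.23 and 0.764 at 144 h. In DNMT3ABKO cells the pairs were 0.815 and 1.28, 1.17 and 1.30, and 0.996 and 0.990 TPM. The lines overlapped at 0 and 144 h. At 72 h both KH libraries lay below both DNMT3ABKO libraries, a difference that was not called, and below both untreated KH libraries. In DNMT3ABKO cells the 72 h libraries lay above those at 144 h. The difference between 72 and 0 h in KH cells was -0.31 ± 0.15 (SE; adjusted p = 0.11), and it was called when libraries were rescaled by median ratios (-0.37, adjusted p = 0.045) or when only those groups were fitted (adjusted p = 0.038). None of the 11 comparisons called Gata6 in the main fit. Nanog, the epiblast factor that opposes Gata6, exceeded it in every library, by 139 to 340 times in TPM, with a median of 244. Of 9 ES cell genes, all tested, 8 were higher and 0 lower at 144 h in KH cells, from Nanog (0.30) to Tdgf1 (1.06). In DNMT3ABKO cells 7 were higher and 1 lower, from Utf1 (-0.30) to Tdgf1 (1.68). The shares called over all genes were 51.3% and 57.6%.

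Gata4 (ENSMUSG00000021944.15, chromosome 14, 63198922 to 63271692, minus strand, mm10) acts after Gata6 in the same lineage, and its level separated the lines rather than the times. KH libraries held 0.918 and 1.13 TPM before treatment, 1.03 and 0.827 after 72 h and 1.41 and 0.871 after 144 h. DNMT3ABKO libraries held 0.383 and 0.450, 0.0966 and 0.223, and 0.480 and 0.387 TPM. The highest DNMT3ABKO value was below the lowest KH value, which was so for 1 of the 10 genes and for 1.01% of all genes above 0 in at least 1 library. In the fit with no filter, DNMT3ABKO cells were lower by -0.51 ± 0.13 at 0 h (adjusted p = 0.096), -0.73 ± 0.13 at 72 h (adjusted p = 0.014) and -0.57 ± 0.13 at 144 h (adjusted p = 0.028), where 3.74%, 9.24% and 14.3% of genes were called. All of these levels are near or below 1 TPM.

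Sox7 (ENSMUSG00000063060.6, chromosome 14, 63943673 to 63950732, plus strand) lies 672 kb from Gata4 and encodes an F-group Sox factor of the endoderm and vasculature. Its 12 values ran from 0.286 to 0.758 TPM and overlapped between lines, and the fit with no filter called it in 0 of 11 comparisons. The smallest unadjusted p over these comparisons was 0.10. No separation of the lines like that of Gata4 was seen in Sox7.

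Sox17 (ENSMUSG00000025902.13, chromosome 1, 4490931 to 4497354, minus strand), the other F-group factor, was highest at 144 h in both lines. KH cells held 0.248 and 0.550 TPM before treatment, 0.439 and 0.401 after 72 h and 0.950 and 1.19 after 144 h. DNMT3ABKO cells went from 0.328 and 0.243 through 0.514 and 0.604 to 2.16 and 1.30 TPM. Both 144 h libraries of each line lay above all its earlier ones. With no filter, the rise to 144 h was 0.57 ± 0.16 in KH (adjusted p = 0.040; 24.4% of genes called) and 1.07 ± 0.16 in DNMT3ABKO cells (adjusted p = 0.0018; 30.4%), of which 0.79 ± 0.16 came after 72 h (adjusted p = 0.017; 13.7%). The difference between lines in this rise was not called, at 0.50 ± 0.23 (adjusted p = 0.34). The third F-group gene, Sox18, held 0.106 to 0.788 TPM, and the endothelial genes Cdh5 and Erg were at most 0.314 and 0.165 TPM in any library. Of 9 endothelial genes 6 were tested, and 2 were higher and 1 lower at 144 h in each line (51.3% and 57.6% of all genes called). The called genes ran from Flt1 (-0.89 in KH, -0.62 in DNMT3ABKO) to Tek in KH (0.63) and Tie1 in DNMT3ABKO cells (2.50).

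Foxa2 (ENSMUSG00000037025.11, chromosome 2, 148042877 to 148046969, minus strand), a forkhead factor of visceral and definitive endoderm, was highest in untreated KH cells. Those 2 libraries held 1.12 and 1.62 TPM, above the other 10, which ran from 0.0786 to 0.445 TPM. KH cells held 0.209 and 0.319 TPM at 72 h and 0.397 and 0.445 at 144 h. DNMT3ABKO cells started at 0.294 and 0.380 TPM, and then held 0.148 and 0.0786 at 72 h and 0.120 and 0.247 at 144 h. With no filter, Foxa2 fell in KH cells at 72 h (-0.90 ± 0.11, adjusted p = 0.0011; 20.0% of genes called) and at 144 h (-0.73 ± 0.11, adjusted p = 0.0022), and was lower in DNMT3ABKO than in KH cells at 0 h (-0.82 ± 0.11, adjusted p = 0.0076). In DNMT3ABKO cells its changes were -0.26 ± 0.11 and -0.18 ± 0.11 (adjusted p = 0.13 and 0.28). The difference between lines in the response was not called at either time (adjusted p = 0.096 and 0.094).

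Genes of the anterior primitive streak and definitive endoderm, with which Foxa2 is also expressed in the embryo, were in part also highest in untreated KH cells. Mixl1, a homeobox gene of the streak, averaged 3.18 TPM in untreated KH and 1.32 TPM in untreated DNMT3ABKO cells, and no later group mean passed 0.142 TPM. Lhx1 averaged 2.75 and 1.16 TPM at 0 h and at most 0.294 TPM later. T (Brachyury) averaged 18.5 and 6.41 TPM at 0 h, and was lower in DNMT3ABKO cells before treatment by -1.40 (adjusted p = 5.1e-05). It then fell by 144 h in KH cells (-2.57, adjusted p = 1.2e-07) and in DNMT3ABKO cells (-2.48, adjusted p = 7.2e-08). Of the 8 streak and definitive endoderm genes listed, 4 were tested (T, Eomes, Cxcr4 and Hhex). At 72 h, 2 were lower and 1 higher in KH cells (47.8% of all genes called), and 3 were lower and 1 higher in DNMT3ABKO cells (56.0%). At 144 h, 3 of 4 were lower and 0 higher in KH cells (51.3% of all genes called). In DNMT3ABKO cells 3 were lower and 1, Hhex, higher (0.36), where 57.6% of all genes were called. Hhex did not have this order and was highest at 72 h, with means of 2.60, 5.60 and 3.26 TPM in KH and 3.09, 5.79 and 4.24 TPM in DNMT3ABKO cells. Eomes fell least of those called in KH cells (-1.63). Foxa1, the paralog of Foxa2, moved the other way at low levels, from group means of 0.232 to 0.816 TPM in KH and 0.278 to 2.71 TPM in DNMT3ABKO cells. Whether these transcripts share their cells with Foxa2 cannot be read from bulk libraries.

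**Figure D2:**
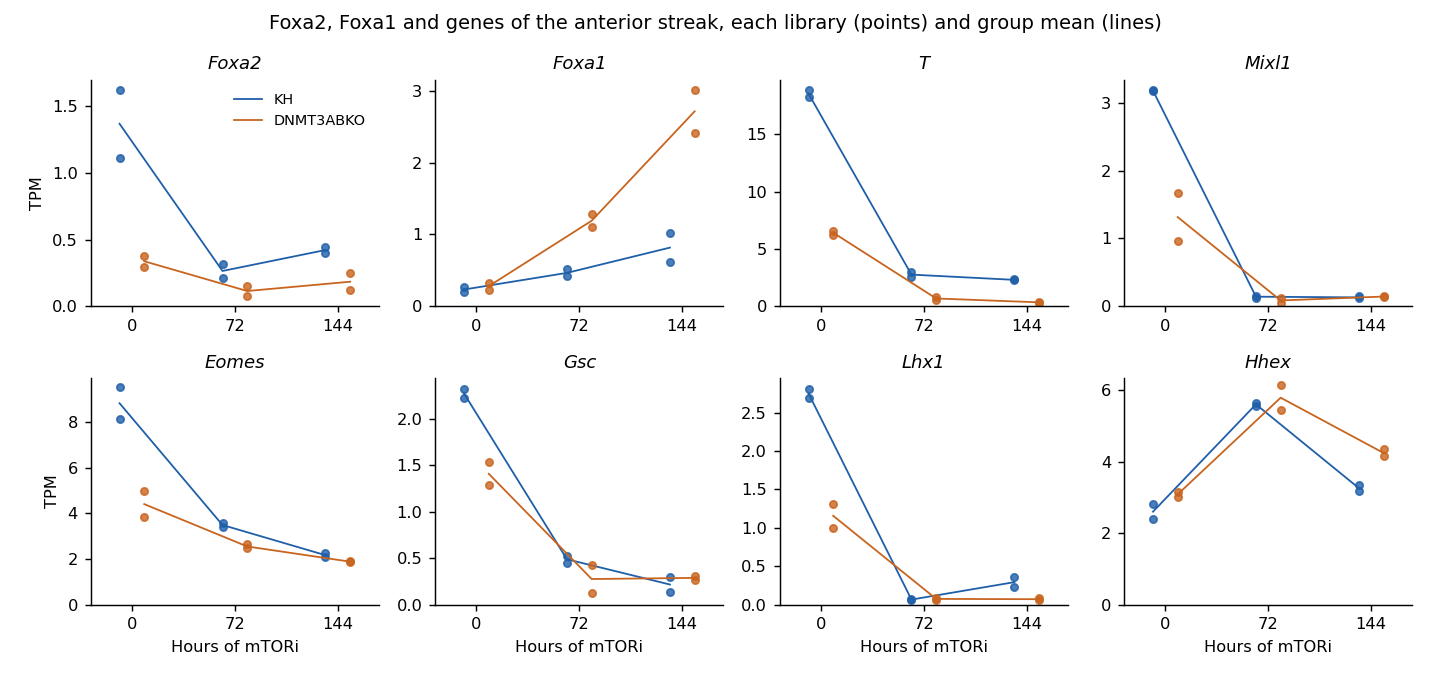
TPM (vertical axes, from 0, scaled per gene) of Foxa2, its paralog Foxa1 and 6 genes of the anterior streak and definitive endoderm at 0, 72 and 144 h of mTORi, with libraries as points and group means as lines. Foxa2, T, Mixl1, Eomes, Gsc and Lhx1 have their highest group mean in KH cells at 0 h, whereas Foxa1 is highest in DNMT3ABKO cells at 144 h.

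Pdgfra (ENSMUSG00000029231.15, chromosome 5, 75152292 to 75198215, plus strand), the receptor for PDGF-A that supports survival of primitive endoderm, fell in both lines. KH cells held 6.67 and 5.54 TPM before treatment, 2.43 and 2.05 after 72 h and 1.61 and 0.958 after 144 h. DNMT3ABKO cells held 6.22 and 7.16, 1.89 and 1.69, and 1.09 and 1.48 TPM. Each time point lay below the one before it, with no overlap within a line, and the lines overlapped at 0 and 144 h. The fall by 72 h was -1.13 ± 0.16 in KH (adjusted p = 3.5e-04) and -1.46 ± 0.16 in DNMT3ABKO cells (adjusted p = 4.5e-05), and by 144 h -1.65 ± 0.16 (adjusted p = 2.2e-05) and -1.75 ± 0.16 (adjusted p = 8.9e-06). From 72 to 144 h, Pdgfra was among the 2 of 5 genes called lower in KH cells (-0.52 ± 0.16, adjusted p = 0.044; 22.9% of all genes called), a call lost in 5 of 9 alternative settings. In DNMT3ABKO cells this step was -0.29 ± 0.16 (adjusted p = 0.22). The lines did not differ beyond the spread at any time, with 95% intervals of the difference of -0.24 to 0.47 at 0 h, -0.57 to 0.14 at 72 h and -0.35 to 0.37 at 144 h.

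Dab2 (ENSMUSG00000022150.16, chromosome 15, 6299788 to 6440712, plus strand), a clathrin adaptor needed for uptake in the visceral endoderm, fell in both lines by 144 h and was already called lower at 72 h in DNMT3ABKO cells. KH cells held 13.6 and 15.2 TPM before treatment, 13.02 and 13.2 after 72 h and 6.85 and 5.39 after 144 h. DNMT3ABKO cells held 11.9 and 14.6, then 8.63 and 9.08, then 3.32 and 2.92 TPM. The lines overlapped at 0 h, and both DNMT3ABKO libraries lay below both KH libraries at 72 and 144 h. In KH cells the change at 72 h was -0.12 ± 0.13 (adjusted p = 0.45), and Dab2 fell by 144 h (-1.12 ± 0.13, adjusted p = 5.7e-05). DNMT3ABKO cells were already lower at 72 h (-0.52 ± 0.13, adjusted p = 0.0056) and reached -1.78 ± 0.13 at 144 h (adjusted p = 1.4e-06). The step from 72 to 144 h was called in both lines, at -0.997 ± 0.126 in KH (adjusted p = 4.5e-04) and -1.26 ± 0.13 in DNMT3ABKO cells (adjusted p = 5.9e-05).

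The 5 tested genes were then compared between the lines. At 0 h, 0 of the 5 tested genes were called between lines (9.06% of all genes), and 1 of 5 had an unadjusted p under 0.05. At 72 h, 2 of 5 were lower in DNMT3ABKO cells (19.3% of all genes), namely Dab2 (-0.52 ± 0.13, adjusted p = 0.017) and Lama1. Neither call held when any 1 of the 4 libraries at 72 h was left out. At 144 h, 2 of 5 were lower (26.5% of all genes), Dab2 (-0.78 ± 0.13, adjusted p = 0.0015) and Lamb1, and the Dab2 call held in all 11 alternatives. The difference between lines in the 72 h response called 0 of 5 (limma; 5.23% of all genes), and 1 of 5, Dab2, had an unadjusted p under 0.05. The 144 h response differed for 1 of 5, Dab2 (-0.66 ± 0.18, adjusted p = 0.048; 8.59% of all genes). That call lay close to the threshold, and it was kept in 5 of 15 alternatives, whose adjusted p ran from 0.016 to 0.17. With the replicate number as a block, the adjusted p was 0.090 within each line and 0.062 across both lines.

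**Figure D3:**
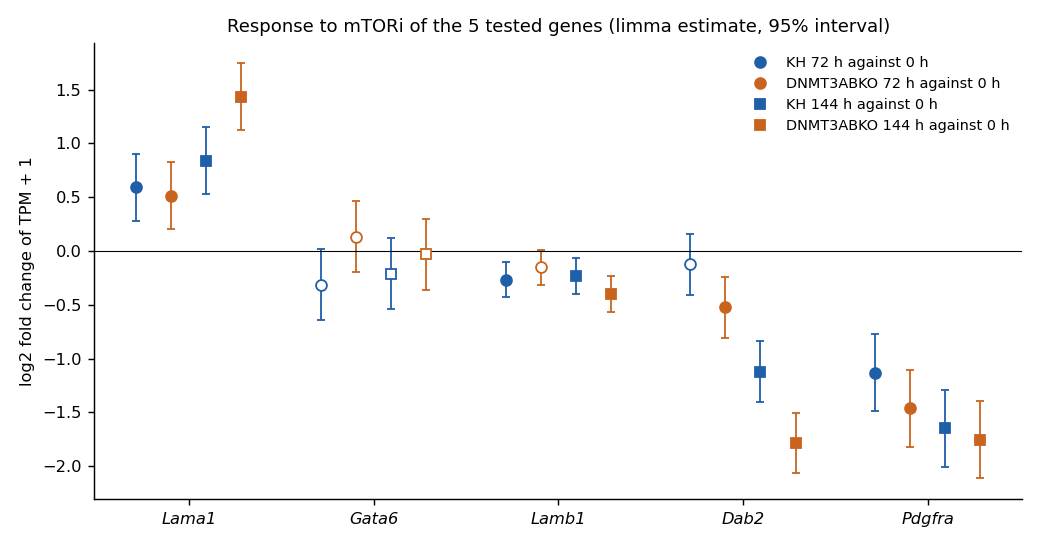
Limma log2 fold change of TPM + 1 (vertical axis) against 0 h for the 5 tested genes, with 95% intervals. Blue is KH and orange DNMT3ABKO, circles are 72 h and squares 144 h, and open symbols were not called. Lama1 lies above 0, Pdgfra and, at 144 h, Dab2 lie below -1, and all Gata6 symbols are open.

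Marker genes of feeder fibroblasts and of macrophages fell over the same times as Pdgfra and Dab2. The summed TPM of the fibroblast genes averaged 2959 at 0 h, 975 at 72 h and 210 at 144 h for KH, and 3207, 787 and 221 in DNMT3ABKO cells. The summed TPM of the macrophage genes averaged 302, 193 and 22.1 for KH, and 265, 130 and 39.2 for DNMT3ABKO. Of 23 tested fibroblast genes, 22 were lower at 144 h in each line, and of 12 macrophage genes, 12 were lower in KH and 11 in DNMT3ABKO cells. The shares called over all genes were 51.3% and 57.6%. Col1a1 fell most among the fibroblast genes in both lines (-5.12 and -5.28), and Lyz2 among the macrophage genes (-5.20 and -3.97). At the other end of the called genes, Fbln1 rose in KH cells (0.65) and Mmp2 fell least in DNMT3ABKO cells (-1.87) among the fibroblast genes, and Cd68 in KH (-0.62) and Mrc1 in DNMT3ABKO cells (-0.80) fell least among the macrophage genes. The part of these cells in the falls of Pdgfra and Dab2 was not tested.

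At 144 h both genes kept more of their level than most of these markers did. Pdgfra kept 36.7% of its 0 h mean at 72 h and 21.1% at 144 h in KH cells, against 26.7% and 19.2% in DNMT3ABKO cells. Over the fibroblast genes the median kept was 41.1% and 6.55% in KH and 31.3% and 6.94% in DNMT3ABKO cells, so that Pdgfra ranked in the middle of the list at 72 h and above 20 and 21 of its 23 genes at 144 h. The shares kept by Dab2 were 91.1% and 42.4% for KH, and 66.9% and 23.6% for DNMT3ABKO. Over the macrophage genes the median kept was 68.4% and 4.06% in KH and 49.6% and 8.85% in DNMT3ABKO cells. At 144 h, where Dab2 was lower in DNMT3ABKO cells, the fibroblast sum was 227 and 214 TPM there against 212 and 208 TPM in KH cells, and the macrophage sum was 40.0 and 38.5 TPM against 22.4 and 21.8 TPM. At 72 h, both sums were lower in DNMT3ABKO cells, as Dab2 was.

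**Figure D4:**
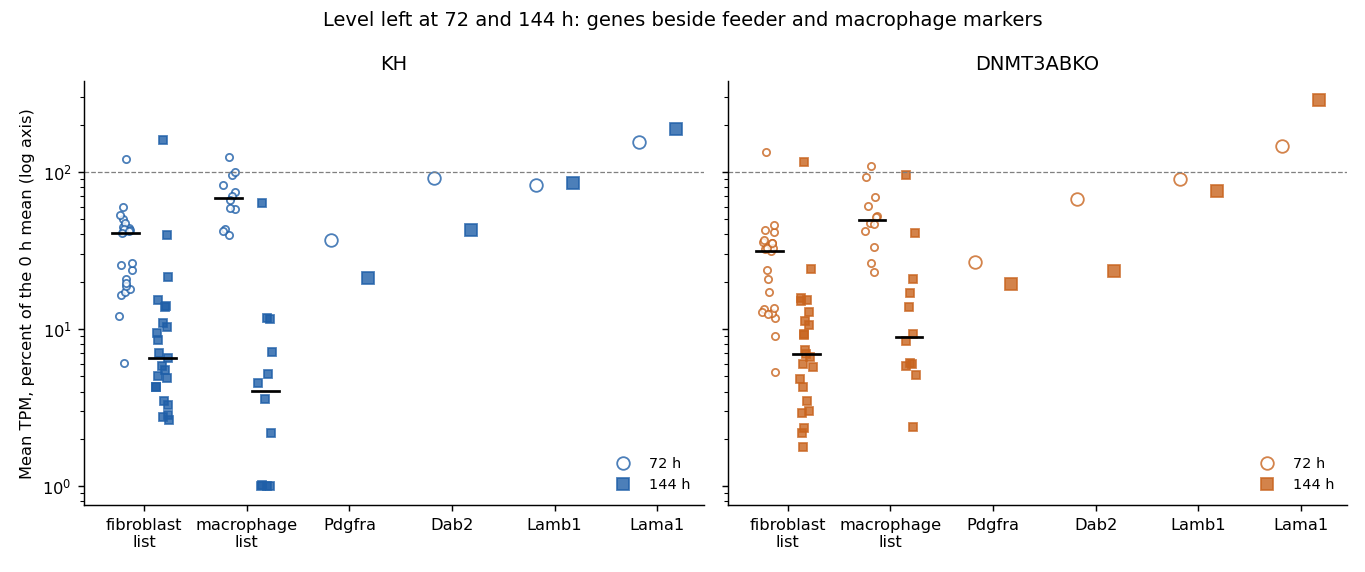
Mean TPM at 72 h (open circles) and 144 h (filled squares) as a percent of the 0 h mean (log axis) in KH and DNMT3ABKO cells, for 23 fibroblast and 12 macrophage marker genes (small symbols, black bars at their medians) and for Pdgfra, Dab2, Lamb1 and Lama1 (large symbols). Values under 1% are drawn at 1%, and the dashed line marks 100%, above which Lama1 lies at both times. Pdgfra and Dab2 lie above the medians of both lists at 144 h.

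The signals that act on the lineage were traced with 10 genes of FGF and PDGF signaling, all tested. At 144 h, 1 was higher and 5 lower in KH cells (51.3% of all genes called). In DNMT3ABKO cells 1 was higher and 6 lower (57.6% of all genes). The median changes were -0.29 and -0.36. Fgf4, the epiblast ligand, rose in both lines (0.56, adjusted p = 1.6e-04, and 0.43, adjusted p = 6.7e-04). Fgfr2, a receptor enriched in primitive endoderm, averaged 23.9 TPM at 0 h, 7.07 at 72 h and 12.4 at 144 h in KH cells, and 21.5, 3.62 and 4.48 TPM in DNMT3ABKO cells. It fell in both lines at 144 h (-0.89, adjusted p = 4.1e-05, and -2.04, adjusted p = 7.0e-08). Pdgfa, the ligand of Pdgfra, was lowest in KH cells at 144 h, where its libraries held 27.5 and 25.8 TPM against 43.7 and 40.7 TPM in DNMT3ABKO cells. Its fall was -0.97 in KH (adjusted p = 3.5e-06) and -0.25 in DNMT3ABKO cells (adjusted p = 0.015), so that the ligand fell more in KH cells, while the fall of its receptor did not differ between lines beyond the spread. The receptor relatives went different ways at 144 h: Pdgfrb, a fibroblast and pericyte gene, fell (-2.00 and -2.45), and Kit rose (0.88 and 0.56).

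Cubn (ENSMUSG00000026726.10, chromosome 2, 13276338 to 13491813, minus strand), the cubilin receptor that works with Dab2 in the visceral endoderm, was below 0.56 TPM in 11 of the 12 libraries. In KH cells at 144 h it stood at 2.82 TPM in 1 library and at 0.0531 TPM in the other, the highest and the lowest of all 12. The remaining 10 libraries ran from 0.129 to 0.552 TPM. In that group 8 of the 10 genes were higher in the first library, as were 51.6% of all tested genes. This was not particular to that group. In DNMT3ABKO cells it was 8 of 10 at 144 h (39.8% of all tested genes) and 2 of 10 at 0 h (26.4%). Cubn stood at 0.388 and 0.386 TPM in DNMT3ABKO cells at 144 h. Cubn was called in 0 of 11 comparisons of the fit with no filter, and the smallest unadjusted p was 0.20.

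Of the 6 endocytic partners, 5 were tested. At 144 h, 1 was higher and 4 lower in KH cells (51.3% of all genes called), and 0 higher and 4 lower in DNMT3ABKO cells (57.6%). Lrp2, the megalin receptor that pairs with cubilin, averaged 7.47, 12.4 and 16.8 TPM at the 3 times in KH cells and 9.19, 16.4 and 9.31 TPM in DNMT3ABKO cells. It rose by 72 h in both lines (0.66, adjusted p = 0.0035, and 0.78, adjusted p = 0.0011). By 144 h it was higher in KH cells (1.05, adjusted p = 1.8e-04), whereas in DNMT3ABKO cells it had fallen again from 72 h (-0.76, adjusted p = 0.0028) and its change from 0 h was 0.02 (adjusted p = 0.93). Amn, which carries cubilin to the membrane, held at most 1.38 TPM and was not among the tested genes. Clcn5, an endosomal chloride transporter, had the lowest change in both lines (-1.27 and -1.13). At 144 h Lrp2 was thus higher and its adaptor Dab2 lower in KH cells.

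The laminin genes made up most of the signal of the 10 genes. Lamb1 was the highest of them in all 12 libraries, and Lamb1 and Lama1 together held 76.6% to 90.7% of their summed TPM. Dab2 exceeded Lama1 in the 4 libraries at 0 h and in none later, and Pdgfra was below Dab2 in all 12.

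Lama1 (ENSMUSG00000032796.8, chromosome 17, 67697259 to 67822647, plus strand) encodes the α1 chain of laminin-111, the laminin of the earliest embryonic basement membranes. Sox17, which stayed below the filter, rose too, and Lama1 was the one called higher among the tested genes. KH cells held 12.1 and 12.7 TPM before treatment, 19.7 and 18.8 after 72 h and 26.8 and 19.8 after 144 h. DNMT3ABKO cells held 8.19 and 10.6, then 13.9 and 13.6, then 26.9 and 26.9 TPM. All treated libraries lay above the untreated ones of their line, and the KH libraries at 144 h were far apart. The rise by 72 h was 0.59 ± 0.14 in KH (adjusted p = 0.0062) and 0.51 ± 0.14 in DNMT3ABKO cells (adjusted p = 0.011). By 144 h it was 0.84 ± 0.14 (adjusted p = 6.8e-04) and 1.43 ± 0.14 (adjusted p = 1.4e-05). From 72 to 144 h it rose in DNMT3ABKO cells (0.92 ± 0.14, adjusted p = 8.8e-04), 1 of 3 genes called there with 27.3% of all genes, and the change in KH cells was 0.25 ± 0.14 (adjusted p = 0.24).

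Between the lines, Lama1 was lower in DNMT3ABKO cells at 72 h (-0.46 ± 0.14, adjusted p = 0.046), a call lost with the replicate block (adjusted p = 0.056 within each line and 0.057 across both). The difference was -0.38 ± 0.14 at 0 h (adjusted p = 0.13) and 0.22 ± 0.14 at 144 h (adjusted p = 0.29). The difference between lines in the 144 h response was 0.59 ± 0.20 (adjusted p = 0.10). It was called in 3 of 15 alternatives, among them that without the first KH library at 144 h (0.80) and that without the second DNMT3ABKO library at 0 h (0.76).

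Lamb1 (ENSMUSG00000002900.16, chromosome 12, 31265234 to 31329644, plus strand) encodes the β1 chain, which many tissues share, and changed little. KH cells held 75.8 and 74.5 TPM before treatment, 63.1 and 61.5 after 72 h and 68.6 and 59.4 after 144 h. DNMT3ABKO cells held 66.8 and 70.9, 62.1 and 61.7, and 52.1 and 51.8 TPM. All treated libraries lay below the untreated ones of their line. The fall in KH cells was -0.27 ± 0.07 at 72 h (adjusted p = 0.013) and -0.23 ± 0.07 at 144 h (adjusted p = 0.023), called in 6 and 5 of 9 alternatives, and the latter was -0.13 without the second library at 144 h. In DNMT3ABKO cells it was -0.15 ± 0.07 at 72 h (adjusted p = 0.11), and after rescaling by median ratios -0.29, which was called. At 144 h it was -0.40 ± 0.07 (adjusted p = 0.0010), called in all 9 alternatives, and the step after 72 h was -0.25 ± 0.07 (adjusted p = 0.030), called in 4 of 9. At 144 h Lamb1 was lower in DNMT3ABKO than in KH cells (-0.29 ± 0.07, adjusted p = 0.015), called in 8 of 11 alternatives, and it was -0.19 and not called without the first KH library.

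The ratios of the 3 chain genes of laminin-111 shifted with treatment. Another α chain gene, Lama5, exceeded Lama1 throughout, at 43.3 to 69.2 TPM in KH and 35.6 to 86.0 TPM in DNMT3ABKO cells. Ratios with Lamb1 and Lamc1 therefore do not describe laminin-111 alone. A ratio of TPM within a library does not depend on how libraries are scaled to each other. Lamb1 stood at 6.05 ± 0.27 times Lama1 (SD, n = 2) in KH cells at 0 h, at 3.24 ± 0.05 at 72 h and at 2.78 ± 0.32 at 144 h, and at 7.41 ± 1.05, 4.50 ± 0.06 and 1.93 ± 0.004 in DNMT3ABKO cells. Lamc1, the γ1 chain, stood at 1.24 to 1.33 times Lamb1 in the 4 untreated libraries. In the 8 treated libraries this ratio lay between 2.45 and 2.75, with no overlap. Lamc1 itself rose in both lines at 144 h (0.70, adjusted p = 7.9e-05, and 0.59, adjusted p = 1.9e-04), the largest rise among the basement membrane partners in each line. Lama1 and Lamc1 thus rose while Lamb1 fell slightly, and these ratios are a description with no test. Such ratios also depend on the mixture of cells, and the part of the falling fibroblast signal in them was not tested.

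Of 10 basement membrane partners, all tested, 6 were higher and 4 lower at 144 h in KH cells (51.3% of all genes called). In DNMT3ABKO cells 4 were higher and 4 lower (57.6% of all genes). The collagen IV genes Col4a1 and Col4a2, whose chains form the network beside laminin, went against Lama1. Col4a1 averaged 74.6, 29.3 and 12.1 TPM at the 3 times in KH cells and 88.4, 26.7 and 10.9 TPM in DNMT3ABKO cells. Col4a2 had the lowest change of the list (-2.76, adjusted p = 1.4e-07, and -3.16, adjusted p = 2.7e-08), and Sparc, a collagen-binding protein abundant in parietal endoderm and fibroblasts, fell by -2.60 and -2.49 in the same order. Nid1, which links laminin to collagen IV, rose at 144 h (0.38, adjusted p = 0.023, and 0.42, adjusted p = 0.012). Fibroblasts also make collagen IV and Sparc, and the part of the falling fibroblast signal in these changes was not tested.

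**Figure D5:**
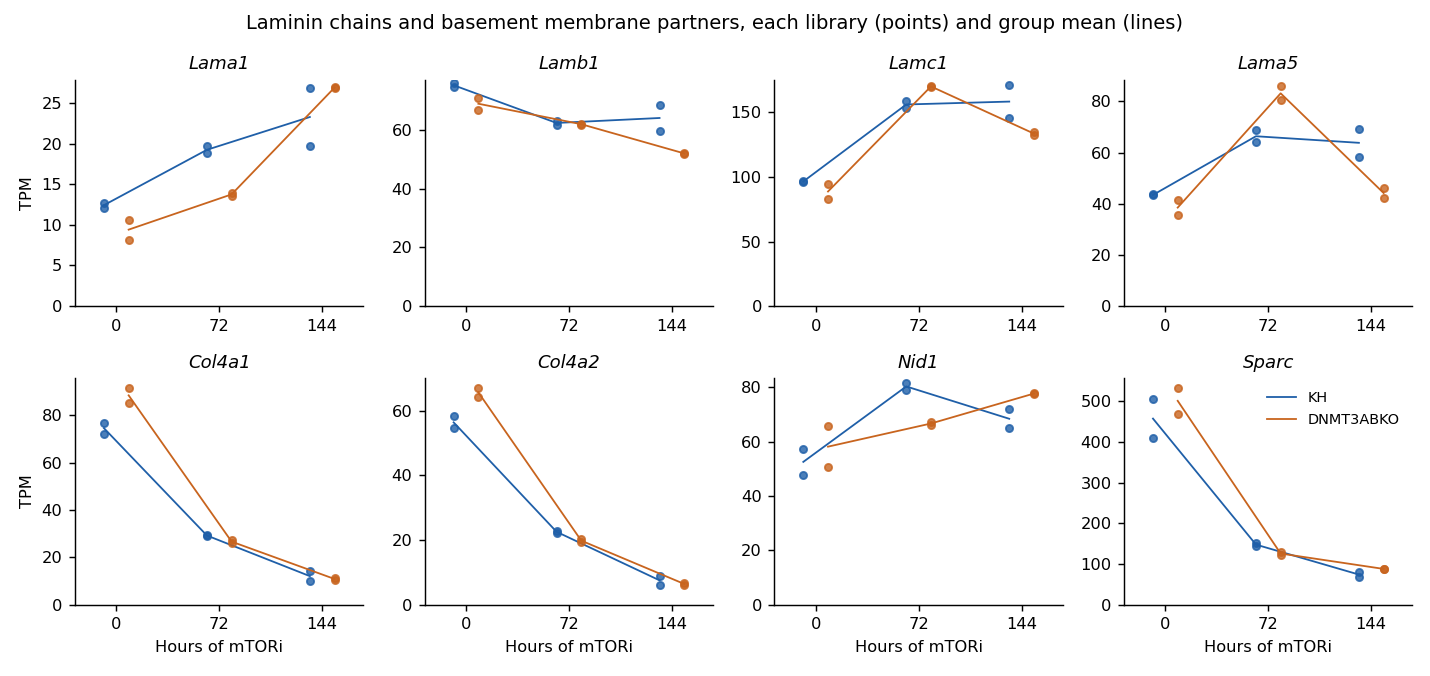
TPM (vertical axes, from 0, scaled per gene) of the laminin chains Lama1, Lamb1, Lamc1 and Lama5 and of Col4a1, Col4a2, Nid1 and Sparc at 0, 72 and 144 h of mTORi, with libraries as points and group means as lines, for KH (blue) and DNMT3ABKO (orange). Lama1 and Lamc1 rise and Col4a1, Col4a2 and Sparc fall in both lines, while Lamb1 keeps over 75% of its 0 h mean.

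Among the 18 family relatives of the 10 genes, 12 were tested. At 144 h, 5 were higher and 4 lower in KH cells (51.3% of all genes called), and 5 higher and 6 lower in DNMT3ABKO cells (57.6%). Lama4, the α chain of endothelial and mesenchymal laminins, had the lowest change in KH cells (-2.10) and Pdgfrb in DNMT3ABKO cells (-2.45). Kit had the highest in KH cells (0.88). Lama1 therefore moved against the α chain gene Lama4 and with the γ chain gene Lamc1.

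Markers of the differentiated descendants were mostly low. Of 10 visceral endoderm genes, 2 were tested, and both rose at 144 h in both lines: Spink1, a secreted protease inhibitor (1.69 and 2.32), and Apoa2, an apolipoprotein (1.09 and 1.01). The defining genes were close to nothing, with Ttr listed at 0 in all 12 libraries, Afp at most 0.102 TPM and Hnf4a at most 0.359 TPM. Of 6 parietal endoderm genes, 5 were tested and 5 were lower at 144 h in each line, with Fst lowest in KH (-2.56) and Thbd in DNMT3ABKO cells (-2.62). Over all genes, 51.3% were called at 144 h in KH and 57.6% in DNMT3ABKO cells, beside both of these lists. The least negative changes were those of Snai1 in KH (-1.46) and Pth1r in DNMT3ABKO cells (-0.40). Snai1, Fst and Thbd are active in other cell types too, fibroblasts among them. Lama1, which is not on that list, thus rose while its 5 tested genes fell.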

How the data were processed

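RNA was quantified in 12 libraries (2 lines, 3 time points, 2 replicates). Per the labels and methods, the authors added ERCC RNA, depleted ribosomal RNA, trimmed reads with cutadapt 2.4, aligned them to mm10 with STAR and quantified a GENCODE annotation with StringTie. Versions in the submitters' notes (STAR 2.7.3a, StringTie 2.0) differ from those in the methods. The deposited values are TPM, 1 library per file, each summing to 1000000. The files list no ERCC rows, and changes in total RNA per cell were not analysed here. With values scaled to ERCC RNA, the study reports a global decrease of transcription under mTORi in both lines. TPM hold no read depth, so counting intervals could not be made. Repeated identifiers (9 to 16 rows per file, none of a reported gene) were added up. Coordinates are those in the files (mm10), and 9 of the 10 genes have the same ones in GENCODE M21.

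Values were analysed as log2(TPM + 1) with limma 3.58.1 (lmFit, eBayes with trend; R 4.3.3) over the 15727 genes that averaged 1 TPM or more, with 6 groups and no covariate, and Benjamini-Hochberg adjustment over all of them in each of 11 contrasts. A count model, as in the study's methods, needs counts and was not fitted to TPM. The script was tested on simulated data. With 2 libraries in each group, the test draws its error from all 6 groups and from the other genes. Alternatives were a pseudocount of 0.1, no filter (37364 genes), median-ratio scaling, only the groups of a contrast, leaving out each library, and a replicate block, within each line (centred, so that lines are compared over both replicates) or, added after the data were seen, across both lines. The 10 genes, the other gene lists and the tests were chosen with earlier results of these data known. The naming rule took all 10 genes, and from other lists direct partners and the called genes with the highest and lowest change at 144 h, some of which are not reported here. Genes named beyond that rule (Mixl1, Lhx1, Foxa1, Nanog, Pou5f1, Sparc, Nid1, Cdh5, Erg, Ttr and Afp, and those added in figures) were chosen after their values were seen. Python 3.11.15, pandas 2.3.3, NumPy 2.4.6 and matplotlib 3.10.9 were used.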

Additional observations from a re-analysis of the deposited data

Results flagged for a closer look

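The lines differed in the 144 h response, by the test of the difference itself, for Dab2 (-0.66, DNMT3ABKO minus KH, on the log2 scale, adjusted p = 0.048) and for 3 of the named partner and signaling genes. The Dab2 call was lost in 10 of 15 alternatives, and 8.59% of all genes were called. Lrp2 was higher at 144 h in KH cells and not called in DNMT3ABKO cells, where it had risen at 72 h (-1.03, adjusted p = 0.010). Pdgfa fell more in KH cells (0.73, adjusted p = 0.0016). Fgfr2 fell more in DNMT3ABKO cells at 72 h (-0.66) and at 144 h (-1.14, adjusted p = 4.3e-04). Genes named from other lists were also called in this limma test of the 144 h response. Among them were Tie1 (2.20, adjusted p = 6.1e-06), Pth1r (1.11, adjusted p = 0.0020), Snai1 (0.81, adjusted p = 0.025) and Eomes (0.73, adjusted p = 0.027). Further listed genes were called too and are not given here. Marker sums of feeder fibroblasts and macrophages stand beside Dab2 in the report, and the cause of these differences was not tested.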

How the results depend on the processing

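Limits are the small groups, an unknown read depth and values relative to each library's total. Median-ratio scaling shifted the median of all genes by -0.12 in DNMT3ABKO cells at 72 h. Of the single-gene values under an alternative, 530 kept direction and side of the threshold, 44 kept direction but were no longer called, 7 became called and 14 changed sign, all 14 uncalled before. The falls of Pdgfra at 72 and 144 h and of Dab2 at 144 h, and the rise of Lama1 at 144 h, were called in every alternative in both lines. The cause of a change was not tested.

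Counts of called genes changed as follows. They are of 5, but of all 10 genes with no filter, where the 1 called between lines at 0 h was Foxa2. KH 144 h against 72 h gave 1 with no filter and with only the groups of the contrast, and 1 to 2 without 1 replicate. DNMT3ABKO against KH at 0 h gave 1 with no filter (0 to 1 without 1 replicate). At 72 h it gave 1 with a pseudocount of 0.1 and with the replicate block within each line or across both, and 0 to 0 without 1 replicate, and at 144 h 1 to 2 without 1 replicate. The difference in the 144 h response gave 0 with no filter, with only the groups of the contrast and with the replicate block within each line or across both, 2 with median-ratio scaling, and 0 to 1 without 1 replicate. Without 1 replicate, KH at 72 h gave 2 to 3 and at 144 h 3 to 4, and DNMT3ABKO at 72 h 2 to 3, at 144 h 4 to 4 and at 144 h against 72 h 2 to 2 in place of 3.

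Same-numbered libraries deviated with correlations of -0.10 to 0.10 within a line. Between lines they were 0.34 at 0 h, -0.064 at 72 h and 0.039 at 144 h. The study says that matching time points of a replicate were handled together, and the labels do not tie the numbers to a day or batch, so whether the numbers pair samples is unsettled. With the block within each line, 545 in place of 823 genes differed in the 72 h response. The block left 3 called genes for DNMT3ABKO at 72 h, as did labelled and crossed numbers (chosen after seeing the data), with 8456, 6264 and 7486 genes called over all. A block across both lines separately at each time (also added later) lost no call of the 5 genes. The block within each line lost 2, those given for Dab2 and Lama1, and the block across both lines lost the same 2. With median-ratio scaling, Lamb1 between lines at 72 h became 0.018.

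Ranges without 1 replicate that crossed 0 were, for Gata6, -0.066 to 0.27 (KH 144 h against 72 h), -0.033 to 0.30 and -0.20 to 0.13 (DNMT3ABKO 72 and 144 h against 0 h) and -0.16 to 0.18 (lines at 144 h). For Pdgfra they were -0.20 to 0.22 (lines at 144 h) and -0.31 to 0.10 (difference in the 144 h response), for Dab2 -0.26 to 0.017 (lines at 0 h), for Lama1 -0.25 to 0.090 (difference in the 72 h response), and for Lamb1 -0.067 to 0.14 (KH 144 h against 72 h) and -0.027 to 0.0081 (lines at 72 h).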
